A study of Mus musculus with 24 samples.

Results

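The 10 genes described here encode cardiac transcription factors: Gata4 and Gata6 (GATA zinc fingers), Nkx2-5 and Irx4 (homeodomain), Tbx5 and Tbx20 (T-box), Mef2a and Mef2c (MADS box), and Hand2 and Mycn (basic helix-loop-helix). They were named as a set and matched by symbol to the Ensembl identifiers of the count table, in which they are 10 of 41388 genes. All 10 passed the filter on low counts in every comparison. The samples were 24 hearts of male wild-type Balb/c (BALB/cAnNCrl) mice immunised at 8 to 10 weeks of age, 4 per group, from mice with experimental autoimmune myocarditis (EAM) and from controls, taken 10, 15 and 21 days (D10, D15 and D21) after the first injection. EAM mice were injected at the start and a week later with a cardiac myosin heavy chain peptide emulsified in Supplemented Complete Freund's Adjuvant (SCFA). Control mice received SCFA with PBS in place of the peptide on the same days. Both groups received pertussis toxin (PTX) with the first injection, so that adjuvant and toxin are shared by EAM and control. The study favoured inflamed hearts when it chose tissue for RNA. RNA came from a portion of each heart as whole tissue, not from sorted cells.

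GATA4, NKX2-5 and TBX5 bind DNA together at genes for contractile proteins, ion channels and natriuretic peptides, and MEF2 and HAND proteins act with them in the developing and adult heart. IRX4 is restricted to the ventricles, whereas TBX5 is more abundant in the atria and is needed there for atrial identity and rhythm. MYCN drives growth and proliferation of cardiomyocytes in the embryo and is low in the adult heart.

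Libraries held between 15814863 and 24980864 reads assigned to genes. The cardiomyocyte markers were abundant in every heart (16 genes, 8245 to 28321 CPM summed). CPM is the read count scaled to library size after TMM normalisation across the 24 libraries. The summed cardiomyocyte markers were lower in D15 EAM (8245 to 15155 CPM) than in D15 control hearts (24034 to 26067 CPM), while the 17 leukocyte markers summed to 3418 to 5089 CPM in D15 EAM and to 454 to 535 CPM in D15 control. In bulk tissue, fewer cells of a type and less RNA per cell cannot be told apart. The share of mitochondrial reads was also lower in D15 EAM (3.19 to 4.31%) than in D15 control (6.10 to 7.14%), and its part in the D15 results was not tested. The library names of the 4 D21 EAM hearts carry another code than those of the other 20 libraries, so at D21 this code and EAM cannot be told apart. The labels name separate samples without saying what the replicate numbers mark, and p-values measure the spread between these samples.

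In the 12 control hearts, the 10 genes differed in level by over an order of magnitude when compared per length. Nkx2-5 had the highest level, at 59.7 ± 4.07 CPM per kilobase of exon (SD, n = 12), followed by Gata4 (45.7 ± 4.03), Hand2 (32.4 ± 5.15), Mef2a (23.1 ± 1.29), Irx4 (19.6 ± 1.16), Tbx20 (16.1 ± 2.14), Gata6 (14.3 ± 1.45), Tbx5 (13.2 ± 5.08) and Mef2c (6.79 ± 0.533). Mycn was lowest, at 2.87 ± 1.26. The ranges of neighbours in this order overlapped from Gata4 to Hand2 and from Mef2a down to Tbx5. Nkx2-5 stood above Gata4, Hand2 above Mef2a, Tbx5 above Mef2c and Mef2c above Mycn without overlap. The order depended on the length used, and only 3 of 10 genes kept their rank with the longest transcript, and 3 with the coding length. Mef2a then ranked second and first, since its exons span 14681 bases in all but its longest transcript 5538.

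Promoter windows, the 250 bases before a RefSeq transcription start, were matched by symbol for 7 of the 10 genes. Gata4, Gata6 and Tbx5 had none. The windows are from RefSeq on GRCm38.p6, and 3 are printed 5′ to 3′ on the strand of the gene without bases that lie in an annotated exon of that gene. They are shown because Mycn had the largest difference between EAM and control, Nkx2-5 is the factor whose EAM effect differed between D15 and D21, and the window of Hand2 also holds exons of its antisense transcript. Capitals mark matches on either strand to any of 8 short sequences searched for. These were AGATAA for GATA factors, CAAGTG for NKX2 factors, AGGTGT for T-box factors, TAAAAATA for MEF2, CACGTG for MYC proteins, TTTCCCGC or TTTGGCGC for E2F and, for the basal promoter, TATAAA.
Mycn, chr12:12941915-12942086, minus strand: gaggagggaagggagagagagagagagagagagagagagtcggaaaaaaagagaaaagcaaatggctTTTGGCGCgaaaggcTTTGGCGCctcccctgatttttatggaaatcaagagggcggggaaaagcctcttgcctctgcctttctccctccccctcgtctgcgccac
Nkx2-5, chr17:26841609-26841815, minus strand: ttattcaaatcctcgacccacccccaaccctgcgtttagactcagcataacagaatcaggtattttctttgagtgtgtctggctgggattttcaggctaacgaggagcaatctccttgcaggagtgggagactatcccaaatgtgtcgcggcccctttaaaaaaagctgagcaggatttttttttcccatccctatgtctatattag
Hand2, chr8:57320733-57320982, plus strand: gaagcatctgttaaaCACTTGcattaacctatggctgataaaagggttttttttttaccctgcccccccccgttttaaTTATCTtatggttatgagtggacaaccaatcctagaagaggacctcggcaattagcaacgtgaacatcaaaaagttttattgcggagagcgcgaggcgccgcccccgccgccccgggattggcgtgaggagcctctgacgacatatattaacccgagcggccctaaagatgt

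The Mycn window held TTTGGCGC at 2 places, from -183 to -176 and from -168 to -161 relative to the start. This sequence was present in 0.417% of the 32851 windows in the table. The Hand2 window held 1 match to CAAGTG, which 11.6% of all windows hold, and 1 to AGATAA, which 9.99% hold, both on the opposite strand. The Nkx2-5 window held none of these sequences, as was the case for Irx4, Tbx20 and Mef2a. Of 3 Mef2c windows, the first held CAAGTG and TATAAA, the second AGGTGT (11.8% of all windows) and TATAAA (12.4%), and the third none. These matches describe letters in a window and were not tested for binding.

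At D15, 9 of the 10 factors fell in EAM and none rose, at an FDR below 0.01 (edgeR quasi-likelihood test with Benjamini-Hochberg adjustment over all genes tested). Of all 15693 genes tested, 31.1% were called lower and 33.2% higher at D15, 64.4% in all. With the 2-fold limit that the study added, 3 of the 10 remained (Mycn, Irx4 and Gata4), against 12.9% of all genes. The median log2 fold change of the 10 was -0.82, against 0.02 for all genes. At D21 the call was made for Tbx5 only, 1 of 10 against 3.1% of all genes called lower, 4.71% called higher and 7.81% in either direction, and the median was -0.41 against -0.01. At D10 none of the 10 was called, in a comparison in which 0% of genes passed. At D10, 3 of the 10 (Tbx5, Mef2c and Irx4) had an unadjusted p below 0.05, against 15.3% of all genes, and DESeq2 called none of the 10 and 0.499% of all genes. The groups overlapped for all 10 at D10, while all EAM hearts lay below all control hearts for 3.75% of genes and above them for 4.41%. The direction of the D15 result rested on the scaling. Relative to the cardiomyocyte markers of the same libraries, 4 of the 10 were called higher, against 71.2% of all genes, and 1 lower, against 2.32%. Details are given further on.

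**Figure D1:**
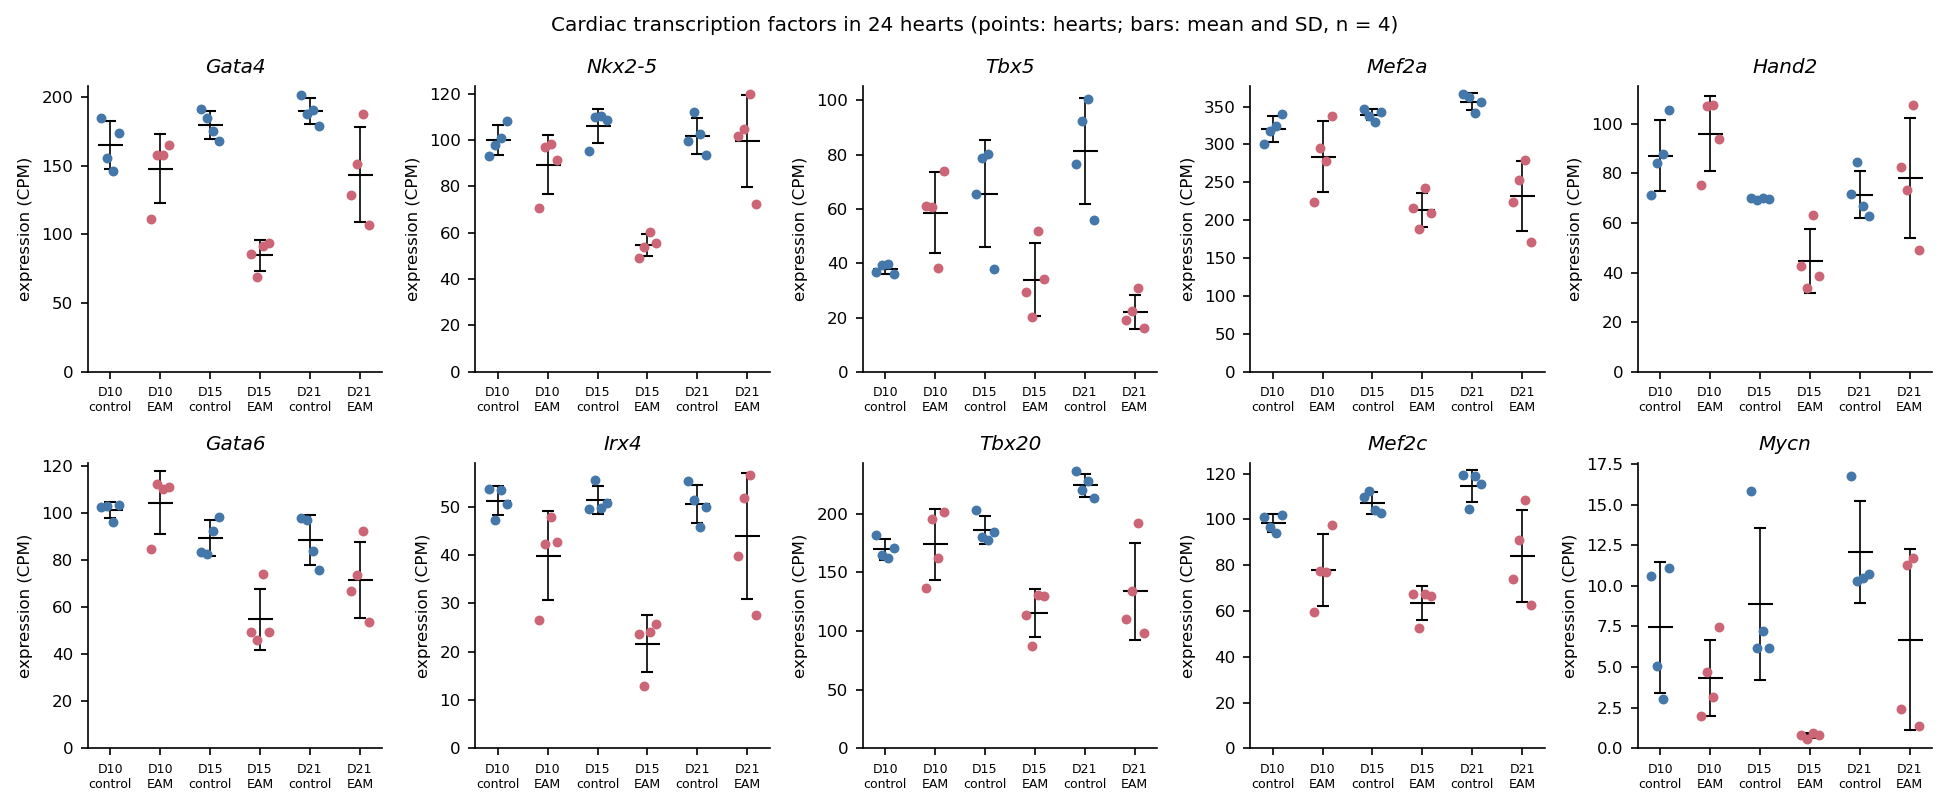
Expression of the 10 factors in CPM (vertical axes, from 0) in each of the 24 hearts (points, control in blue and EAM in red), with the mean and SD of each group of 4. At D15 the EAM hearts sit below the control hearts for every factor except Tbx5, whose groups overlap, and Mycn lies between 0.60 and 0.93 CPM in D15 EAM.

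Gata4 and Gata6 encode zinc finger proteins that recognise the same short DNA element. Gata4 (chr14:63198922-63271692, minus strand) was at 191, 185, 176 and 168 CPM in the D15 control hearts and at 85.5, 68.9, 91.6 and 93.5 in the D15 EAM hearts. All D15 EAM hearts were below all D15 control hearts, as for 35.9% of all genes, and Gata4 fell by 1.05 on the log2 scale (SE 0.10, FDR = 1.5e-05). At D10, Gata4 was at 185, 156, 146 and 174 CPM in control and at 111, 158, 158 and 165 in EAM hearts. At D21 it was at 201, 188, 191 and 179 CPM in control and at 129, 151, 188 and 107 in EAM hearts. Groups overlapped at both times, and the log2 fold changes were -0.17 (SE 0.14, FDR = 0.497) at D10 and -0.39 (SE 0.15, FDR = 0.0738) at D21. The effect of EAM on Gata4 was lower at D15 than at D10 (difference -0.93, SE 0.20, FDR = 0.00234).

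Gata6 was at 83.5, 82.6, 92.6 and 98.6 CPM in D15 control and at 49.7, 46.3, 74.3 and 49.6 in D15 EAM hearts. The groups did not overlap, and Gata6 fell by 0.67 on the log2 scale (SE 0.14, FDR = 0.00227). Leaving out D15 EAM heart 1 or 4 brought the FDR to 0.0110 or 0.0111, just past the limit. Gata6 was at 96.3 to 104 CPM in D10 control, 84.8 to 112 in D10 EAM, 75.8 to 98.1 in D21 control and 53.9 to 92.7 in D21 EAM hearts, with overlap at both times and log2 fold changes of 0.03 (SE 0.10) and -0.29 (SE 0.15). Its effect on Gata6 was also lower at D15 than at D10 (difference -0.75, SE 0.21, FDR = 0.00859). That call was lost without any single heart of the 2 days except D10 EAM heart 1 or D15 EAM heart 3, with an FDR of up to 0.0232, and with RLE or total counts in place of TMM. Gata6 shares 93 exon bases with the antisense transcript 1010001N08Rik, which also fell at D15 (-1.31, SE 0.19) and whose highest count was 276 against a lowest Gata6 count of 976. No source used here gives the strand setting of the counting, so reads in such shared bases cannot be assigned with certainty.

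Nkx2-5 and Irx4 encode homeodomain proteins, and Nkx2-5 is among the earliest markers of the cardiac lineage. Nkx2-5 (chr17:26838664-26845009, minus strand) was at 95.2, 110, 110 and 109 CPM in D15 control and at 49.2, 53.9, 60.3 and 55.7 in D15 EAM hearts. The groups were far apart, and Nkx2-5 fell by 0.92 (log2, SE 0.08, FDR = 7e-06). At D21 the values were 99.5, 112, 103 and 93.5 CPM in control and 102, 105, 120 and 72.2 in EAM hearts. Of the 4 D21 EAM hearts, 3 were thus as high as the control hearts and 1 was lower, and the log2 fold change was -0.02 (SE 0.14, FDR = 0.938). At D10 the values were 93.0 to 108 CPM in control and 70.7 to 98.2 in EAM hearts (-0.18, SE 0.11, FDR = 0.412). For Nkx2-5, the effect of EAM was lower at D15 than at D10 (difference -0.79, SE 0.17, FDR = 0.00233) and higher at D21 than at D15 (difference 0.92, SE 0.17, FDR = 0.00163). Nkx2-5 was the only one of the 10 for which the second difference passed the limit, against 8.47% of all genes called higher and 12.1% called in either direction. For the first difference, 4 of the 10 were called lower (Tbx5, Gata4, Nkx2-5 and Gata6), against 16.7% of all genes and 26.1% in either direction. Without D10 EAM heart 1, 8 of the 10 (all but Mef2c and Hand2) were called lower, against 22.4% of all genes. The D15 hearts are part of both differences.

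Irx4 was at 49.6, 55.6, 49.8 and 50.7 CPM in D15 control and at 23.7, 12.9, 24.1 and 25.7 in D15 EAM hearts. All D15 EAM hearts were well below all D15 control hearts, and Irx4 fell by 1.21 (log2, SE 0.19, FDR = 0.000277). At D21, Irx4 was at 45.7 to 55.4 CPM in control and at 39.9, 51.9, 56.5 and 27.5 in EAM hearts, with overlap and a log2 fold change of -0.19 (SE 0.19, FDR = 0.457). At D10 it was at 47.3 to 53.7 CPM in control and 26.5 to 47.9 in EAM hearts (-0.38, SE 0.16, unadjusted p = 0.0455, FDR = 0.328). The difference between the D21 and D15 effects of EAM was 1.05 for Irx4 (SE 0.29, FDR = 0.0116), 0.68 for Gata4 (SE 0.20, FDR = 0.0169) and 0.78 for Hand2 (SE 0.28, FDR = 0.0419). None of the 3 passed the limit. Without D21 EAM heart 4, all 3 did, as did Mycn and Nkx2-5, 5 of 10 against 16% of all genes called higher in that fit.

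Tbx5 varied widely between hearts, including among controls. Tbx5 (chr5:119832668-119885219, plus strand) was at 36.7, 39.4, 39.7 and 36.0 CPM in D10 control, at 65.4, 78.7, 80.2 and 37.8 in D15 control and at 76.6, 92.4, 100.5 and 55.9 in D21 control hearts. In EAM hearts it was at 61.1, 60.7, 38.4 and 74.1 CPM at D10, at 29.6, 20.1, 52.0 and 34.2 at D15 and at 19.2, 22.4, 30.8 and 16.0 at D21. The D21 groups were apart, the D10 and D15 groups overlapped. Tbx5 fell 3.65-fold at D21 (log2 fold change -1.87, SE 0.23, FDR = 0.00469). The D21 call was lost, with an FDR of 0.0113 to 0.0274, when any 1 of the 4 D21 control hearts or D21 EAM heart 1 or 2 was left out, while the log2 fold change stayed between -2.06 and -1.75 with any D21 heart left out. The 6 fits that lost the call called 0 to 0.285% of all genes. The D10 and D15 values were 0.62 (SE 0.18, unadjusted p = 0.00678, FDR = 0.328) and -0.91 (SE 0.30, FDR = 0.0209). The D15 value was called by DESeq2, by edgeR's likelihood ratio test and in the fit of all 24 libraries, and without D15 control heart 4 or D15 EAM heart 3.

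Transcripts of the atria also differed between hearts. Bmp10, a growth factor made in the atria, was at 0 to 1.14 CPM in the D10 control hearts, at 0.353 in D15 control heart 4 and at 0.0669 to 0.276 in the 4 D21 EAM hearts. It was at 7.13 CPM in D10 EAM heart 3 and at 49.0 to 247 in the other 14 hearts. The 7 atrial markers summed to 843 to 1442 CPM in D21 control and to 112 to 224 in D21 EAM hearts. All 7 were called lower at D21, against 3.1% of all genes. The same sum was 294 to 357 CPM in D10 control, 357 to 1072 in D10 EAM, 298 to 1155 in D15 control and 265 to 733 in D15 EAM hearts. Sampling of atrial tissue and EAM cannot be told apart at D21, where all control hearts were high and all EAM hearts near 0 for Bmp10. Among the 9 hearts with Bmp10 at 1.14 CPM or less, Tbx5 was at 36.0 to 39.7 CPM in the D10 control hearts, at 37.8 in D15 control heart 4 and at 16.0 to 30.8 in the D21 EAM hearts. In D15 EAM hearts 1, 2 and 4, Tbx5 was lower than in all D10 control hearts, at 29.6, 20.1 and 34.2 CPM, while Bmp10 was at 49.0, 51.2 and 94.2. These values come from different days and library codes and were not tested against each other.

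**Figure D2:**
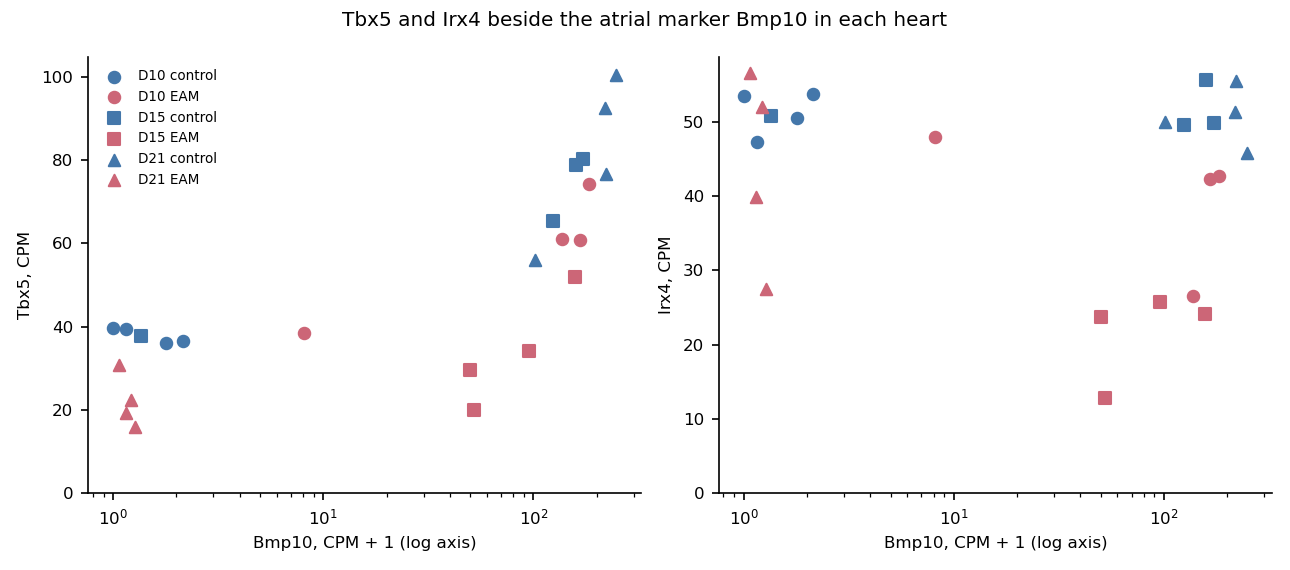
Tbx5 (left) and Irx4 (right) in CPM against Bmp10 in CPM + 1 on a log axis, with 1 point per heart, control in blue and EAM in red (circles D10, squares D15, triangles D21). The 4 D21 EAM hearts lie at 16.0 to 30.8 CPM of Tbx5 at the left edge, under the 5 control hearts with Bmp10 near 0, whereas Irx4 ranges from 27.5 to 56.5 CPM in the same EAM hearts.

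In control hearts, Tbx5 rose from D10 to D21 (1.10, SE 0.21, FDR = 0.00715), as did Tbx20 (0.40, SE 0.06, FDR = 0.00294). These were 2 of 10, against 1.61% of all genes called higher and 2.59% in either direction. The Tbx5 call was lost, with an FDR of up to 0.0264, without any single D10 control heart or D21 control heart 1, 2 or 3, and Tbx20 was not called without D10 control heart 3 (FDR = 0.0105) or D21 control heart 3 (FDR = 0.0119). Bmp10 was at 1.14 CPM or less in all D10 control hearts and at 100.3 to 247 in the D21 control hearts, and its part in the Tbx5 rise was not tested. None of the 10 was called from D10 to D15 or from D15 to D21 in control hearts, where 0.0914% and 0% of genes were called. Without D15 control heart 4, Tbx5 was called higher at D15 than at D10, 1 of 10 against 0.72% of all genes. At an unadjusted p below 0.05, Tbx5, Hand2, Tbx20 and Mef2c passed from D10 to D15 (4 of 10 against 16.8% of all genes) and Tbx20 from D15 to D21 (1 of 10 against 9.74%), and DESeq2 called none of the 10 in the former, against 2.34% of all genes, and Tbx20 in the latter, against 0.0457%. The effect of EAM on Tbx5 was lower at D15 than at D10 (difference -1.58, SE 0.38, FDR = 0.0038) and lower at D21 than at D10 (difference -2.51, SE 0.39, FDR = 0.000891). The second of these was called for Tbx5 alone, against 0.815% of all genes called lower and 0.913% in either direction. Without D21 EAM heart 3, Tbx20 was called lower as well, 2 of 10 against 1.07% of all genes.

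Tbx20, which acts in both the ventricle and the atrium, was at 204, 180, 177 and 184 CPM in D15 control and at 114, 86.9, 131 and 130 in D15 EAM hearts. It fell by 0.65 (log2, SE 0.13, FDR = 0.00112). At D21 the control hearts were at 236, 221, 228 and 213 CPM and the EAM hearts at 110, 134, 192 and 98.4. All D21 EAM hearts were below all D21 control hearts for Tbx20, Mef2a and Tbx5, 3 of 10 against 18.7% of all genes. The D21 log2 fold change of Tbx20 was -0.73 (SE 0.18, FDR = 0.0191). At D10 the groups overlapped (162 to 182 CPM in control, 137 to 202 in EAM, log2 fold change 0.02, SE 0.12).

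Mef2a and Mef2c encode MADS box proteins, which bind A/T-rich elements of muscle genes and respond to calcium signals. Mef2a was at 347, 337, 330 and 343 CPM in D15 control and at 216, 188, 242 and 209 in D15 EAM hearts, and it fell by 0.63 (log2, SE 0.08, FDR = 0.000112). At D21 it was at 366, 362, 342 and 357 CPM in control and at 225, 254, 279 and 171 in EAM hearts (-0.60, SE 0.13, FDR = 0.0137). The D21 groups did not overlap, but the value did not pass the limit. DESeq2, the likelihood ratio test and the fit of all 24 libraries each called Mef2a and Tbx20 lower at D21, and they called 10.8, 8.17 and 11.9% of all genes lower. Mef2c was at 110, 113, 104 and 103 CPM in D15 control and at 67.4, 52.4, 67.5 and 66.4 in D15 EAM hearts, and it fell by 0.72 (log2, SE 0.09, FDR = 7e-05). At D21 it was at 105 to 119 CPM in control and 62.7 to 108 in EAM hearts (-0.43, SE 0.15, FDR = 0.0523). At D10 the log2 fold changes were -0.19 (SE 0.12) for Mef2a and -0.35 (SE 0.14, unadjusted p = 0.0292) for Mef2c, with overlapping groups. Mef2a shares 302 exon bases with Lysmd4 on the opposite strand, whose counts reached 630 against at least 3098 for Mef2a and which fell by 1.18 at D15 (log2, SE 0.10, FDR = 9.0e-06).

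Hand2 encodes a basic helix-loop-helix protein of the ventricles and outflow tract. Its D15 control hearts were close together, at 70.1, 69.3, 70.1 and 69.7 CPM, and its D15 EAM hearts were at 42.5, 34.0, 63.2 and 38.68. The groups did not overlap, and Hand2 fell by 0.61 (log2, SE 0.16, FDR = 0.00736). This was the weakest of the 9 calls and was lost, with an FDR of 0.016 to 0.0302, without any single D15 heart except EAM heart 3, and with total counts in place of TMM. Hand2 was at 71.2 to 106 CPM in D10 control, 75.2 to 108 in D10 EAM, 62.6 to 84.6 in D21 control and 49.1 to 108 in D21 EAM hearts, with log2 fold changes of 0.13 (SE 0.15) and 0.14 (SE 0.21, FDR = 0.608). The antisense transcript Hand2os1, which shares 461 exon bases with Hand2, was at 59.9, 68.2, 60.1 and 62.8 CPM in D15 control and at 21.6, 19.2, 38.2 and 22.6 in D15 EAM hearts. Hand2os1 fell by 1.27 (log2, SE 0.19, FDR = 0.00024). Its highest count was 1235, above the lowest Hand2 count of 889, unlike the antisense counts beside Gata6 and Mef2a. With the strand setting unknown, reads in the shared bases cannot be assigned with certainty. The effect of EAM on Hand2os1 was 1.17 higher at D21 than at D15 (SE 0.31, FDR = 0.00978).

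Mycn had the largest difference of the 10. It was at 15.8, 6.20, 7.20 and 6.19 CPM in D15 control and at 0.833, 0.596, 0.929 and 0.849 in D15 EAM hearts. All D15 EAM hearts were far below all D15 control hearts, and Mycn fell 10.8-fold (log2 fold change -3.43, SE 0.37, FDR = 2.8e-05). The lowest count behind these values was 17 reads. The D15 call held without any single heart, with log2 fold changes of -3.56 to -2.98. At D21 Mycn was at 16.8, 10.3, 10.5 and 10.8 CPM in control and at 2.42, 11.3, 11.7 and 1.38 in EAM hearts. A pair of D21 EAM hearts was at the control level and the other pair well below it, and the log2 fold change was -0.86 (SE 0.60, FDR = 0.285). At D10 it was at 10.6, 5.07, 3.03 and 11.1 CPM in control and at 1.99, 4.70, 3.18 and 7.44 in EAM hearts, and the groups overlapped (-0.80, SE 0.49, FDR = 0.408). The difference between the D15 and D10 effects of EAM was -2.68 (SE 0.82, FDR = 0.0127) and that between D21 and D15 was 2.60 (SE 0.81, FDR = 0.0219), neither past the limit.

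Of 9 other genes of the MYC family (relatives of Mycn, their partners and their antagonists), 7 rose and none fell at D15. Of all genes, 33.2% were called higher and 31.1% lower at D15. None of the 9 was called at D21, against 7.81% of all genes, or at D10, against 0%. The 2 not called at D15 were the antagonists Mxi1 (-0.34, SE 0.10, FDR = 0.0151) and Mxd4 (-0.15, SE 0.08, FDR = 0.14). Myc itself, the closest relative of Mycn, was at 3.65, 3.07, 3.78 and 4.95 CPM in D15 control and at 33.5, 34.9, 33.9 and 36.1 in D15 EAM hearts. It rose by 3.20 on the log2 scale (SE 0.13, FDR = 6.1e-08). Max, the shared partner of MYC proteins, rose by 0.62 (SE 0.07), Mycl by 1.5 (SE 0.37), and Mxd1 and Mxd3, which antagonise MYC at Max, by 3.11 (SE 0.16) and 1.99 (SE 0.34). At D21 Myc was at 15.5, 9.86, 6.48 and 27.2 CPM in EAM and at 3.51 to 5.53 in control hearts (1.79, SE 0.42, FDR = 0.0169), so that EAM hearts 1 and 4, with the lowest Mycn, had the highest Myc. Leukocyte markers were higher in the same EAM hearts, and their part in the MYC family values was not tested.

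**Figure D3:**
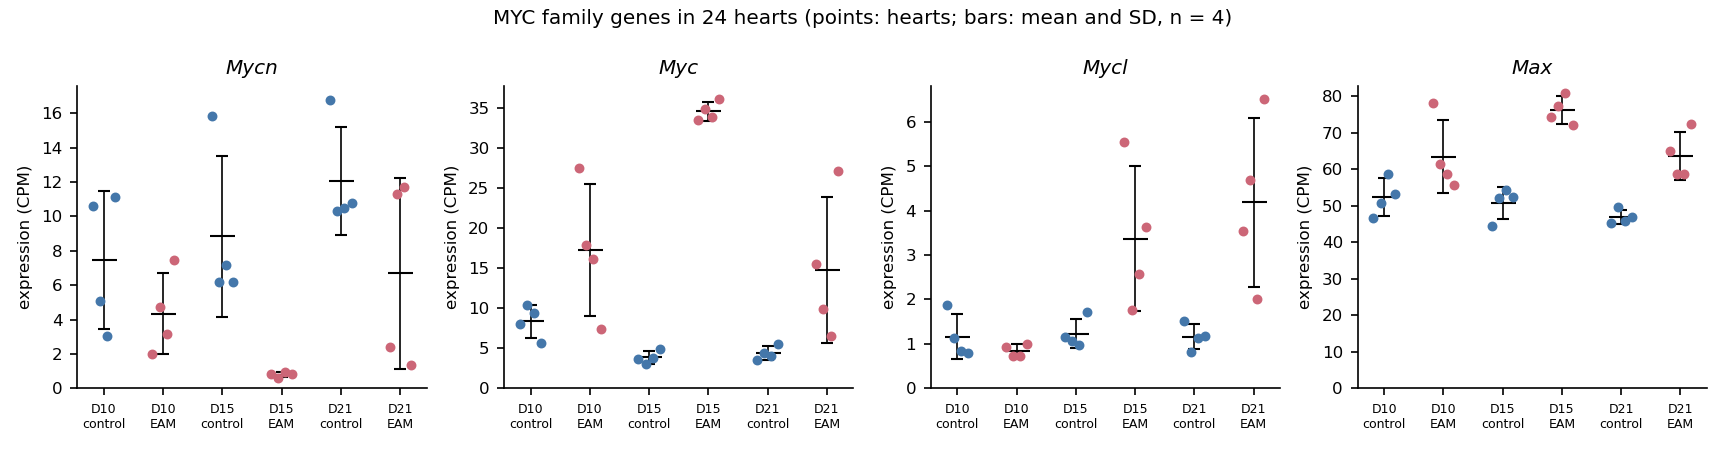
Mycn, Myc, Mycl and Max in CPM (vertical axes, from 0) in each heart (points, control in blue and EAM in red) with the mean and SD of each group of 4. In D15 EAM hearts Mycn lies at 0.596 to 0.929 CPM and Myc at 33.5 to 36.1, whereas D15 control hearts lie at 6.19 to 15.8 for Mycn and 3.07 to 4.95 for Myc.

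Since cardiomyocyte transcripts made up less of the D15 EAM libraries, the comparison was repeated with libraries scaled to the 16 cardiomyocyte markers, which sets the level of a factor against that of the muscle cell transcripts. This scaling moved the median log2 fold change of all genes to 1.24 at D15, 0.40 at D21 and 0.29 at D10. At D15, 4 of the 10 were then called higher, against 71.2% of all genes: Mef2a (0.57, SE 0.15), Hand2 (0.54, SE 0.15), Tbx20 (0.53, SE 0.16) and Gata6 (0.51, SE 0.16). Mycn alone was called lower (-2.26, SE 0.35, FDR = 5.4e-05), against 2.32% of all genes. The other 5 were not called, with Mef2c at 0.48 (SE 0.17), Nkx2-5 at 0.30 (SE 0.18), Tbx5 at 0.20 (SE 0.23), Gata4 at 0.15 (SE 0.17) and Irx4 at -0.05 (SE 0.18). All 10 lay below the median of all genes under this scaling. At D21 Tbx5 was lower under this scaling too (-1.52, SE 0.19, FDR = 0.00914), 1 of 10 against 0.177% of all genes called lower, and none was higher, against 0.0197%. None of the 10 was called at D10, against 0% of all genes. The differences between days changed as well. The effect of EAM was called higher at D15 than at D10 for Mef2a (difference 0.48, SE 0.14) and Mef2c (0.56, SE 0.16), 2 of 10 against 35% of all genes, and none of the 4 factors called lower under TMM was called. It was called lower at D21 than at D15 for Tbx20 (difference -0.92, SE 0.15), Mef2a (-0.81, SE 0.14) and Tbx5 (-1.72, SE 0.32), 3 of 10 against 13.2% of all genes, and Nkx2-5 was not called (0.05, SE 0.19).

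**Figure D4:**
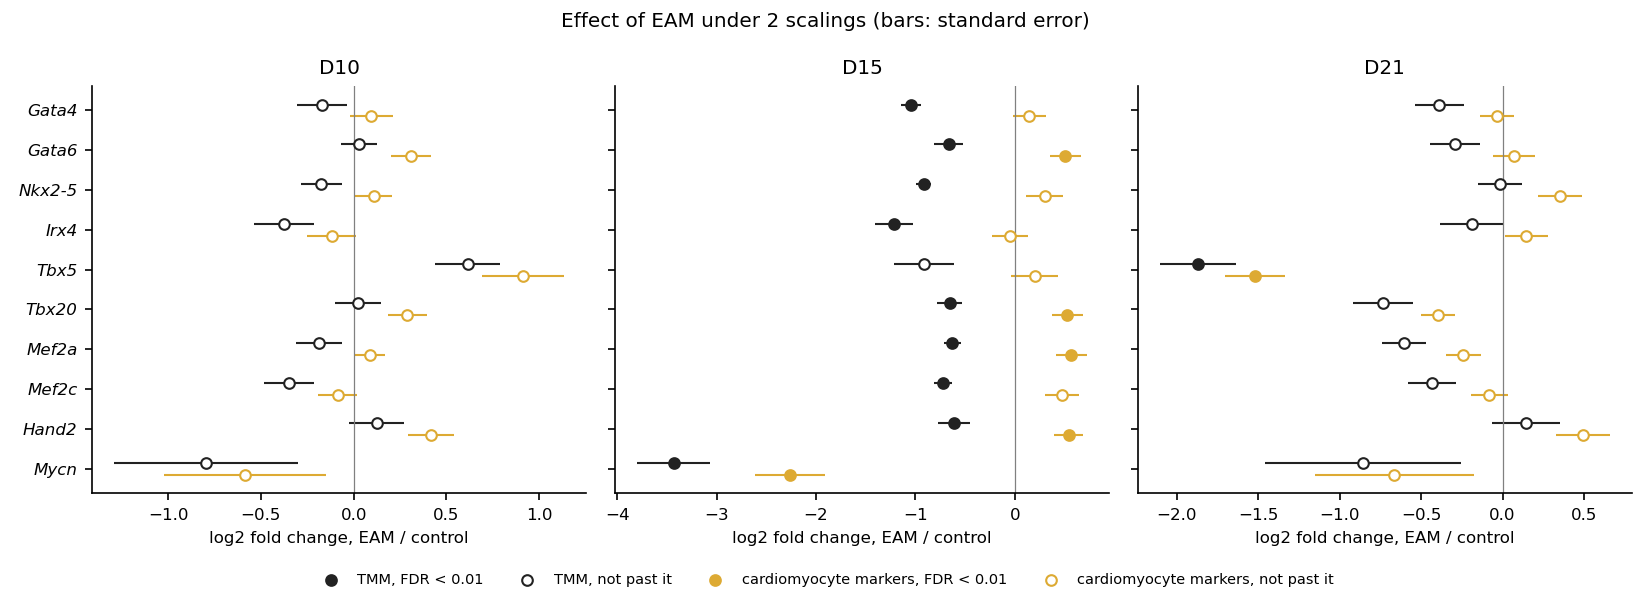
Log2 fold change of EAM over control (horizontal axis) with its standard error for the 10 factors at D10, D15 and D21, after TMM scaling (black) and after scaling to the cardiomyocyte markers (yellow). Filled points passed an FDR of 0.01. At D15 the black points lie between -3.43 and -0.61, and all yellow points except Mycn lie between -0.05 and 0.57.

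The ratio of each factor to the geometric mean of the cardiomyocyte markers in the same heart was compared by an exact two-sided permutation test, whose smallest possible p is 0.0286 for 4 against 4 hearts. For each reference 30 such tests were made. The values below are unadjusted, and none could fall below the limit of 0.01 used for the other calls. At D15 the EAM hearts lay above all control hearts for Tbx20, Mef2a, Hand2 and Gata6 and below them for Mycn (exact p = 0.0286 each), while this ratio was above all control hearts for 78.4% of all genes and below them for 3.39%. The log2 ratio of Mycn was -8.72 ± 0.25 in D15 EAM and -7.20 ± 0.64 in D15 control hearts (SD, n = 4). A pseudocount of 0.5 CPM was added before the ratio, and Mycn was at only 0.596 to 0.929 CPM in D15 EAM hearts. The pseudocount therefore narrowed the Mycn difference, which was -1.52 here and -2.26 in the scaled fit. At D10 they lay above all control hearts for Tbx5, Hand2 and Gata6 (exact p = 0.0286 each), 3 of 10 against 9.36% of all genes, and below them for none, against 0.512%. At D21 the groups did not overlap for Tbx5 and Tbx20, with differences of -1.47 and -0.40, nor for Hand2 and Nkx2-5, with differences of 0.48 and 0.34 (exact p = 0.0286 each). Of all genes, 5.6% were below and 19.7% above all control hearts. Against 25 cardiac target genes in place of the markers, the groups did not overlap for 1 of 10 at D15 (Mycn, lower, as for 4.61% of all genes, with none of the 10 higher against 57%) and for 9 of 10 at D21 (exact p = 0.0286 each). Of those 9, Tbx5 was lower in EAM, as were 0.504% of all genes, and 8 were higher, as were 84.8%. At D10, Mef2a and Mef2c were then below all control hearts (differences -0.27 and -0.44, exact p = 0.0286 each), 2 of 10 against 9.73% of all genes. None was above them, against 0.592%, and Tbx5, Hand2 and Gata6 overlapped. Those targets include Myl7, Myl4 and Nppa, which are atrial and were among the 4 targets that fell at D21.

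For 9 of the 10 factors (all but Tbx5), the SD among the D21 EAM hearts was larger than that among the D21 control hearts, as it was for 82.1% of all genes. Ptprc, which encodes the pan-leukocyte protein CD45, was at 48.9 CPM in D21 EAM heart 3, 96.3 in heart 2, 149 in heart 1 and 229 in heart 4. Of the 10 factors, 9 followed the exact inverse of that order, from highest in heart 3 to lowest in heart 4, as did 21.4% of all genes. Hand2 was the exception, with 82.7 CPM in heart 1 and 73.3 in heart 2. Gata4, for example, was at 188, 151, 129 and 107 CPM in hearts 3, 2, 1 and 4, and Tbx20 at 192, 134, 110 and 98.4. The summed cardiomyocyte markers of hearts 3, 2, 1 and 4 ran in the same order, at 26050, 21008, 16140 and 14143 CPM, as did the summed endothelial markers, at 1537, 1424, 1201 and 953 CPM. The summed fibroblast markers ran the other way, from 6446 CPM in heart 3 to 15706 in heart 4. The summed mural cell markers kept neither order, at 2024, 2159, 1467 and 1020 CPM in hearts 3, 2, 1 and 4. The share of mitochondrial reads was 6.77, 5.50, 3.91 and 4.34% in hearts 3, 2, 1 and 4. The part of these markers and of the mitochondrial share in the order of the factors was not tested. In the D10 EAM hearts 1 of the 10 (Gata6) followed the inverse order of Ptprc, against 7.73% of all genes, and in the D15 EAM hearts 0 of 10, against 2.59%. In control hearts it was 3 of 10 at D10 (6.19% of all genes), 1 of 10 at D15 (3.84%) and 1 of 10 at D21 (4.19%). Ptprc spanned a narrower range at D15, from 244 to 306 CPM. With D21 EAM heart 3 left out, 5 of the 10 were called lower at D21 (Tbx5, Tbx20, Mef2a, Mef2c and Gata4), against 10.4% of all genes in that fit. With D21 EAM heart 4 left out, 2 were (Tbx5 and Mef2a), against 2.55%. Heart 1 of the D10 EAM group had the highest Ptprc of its group (194 CPM, against 27.7 to 56.7 in the others). It had the lowest Gata4, Gata6, Nkx2-5, Irx4, Tbx20, Mef2a, Mef2c, Hand2 and Mycn. Its summed cardiomyocyte, endothelial and mural cell markers were also the lowest of the group, at 15140.5, 1129 and 1222 CPM. The share of all genes lowest in this heart was not counted, so these values are not read as particular to the factors.

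**Figure D5:**
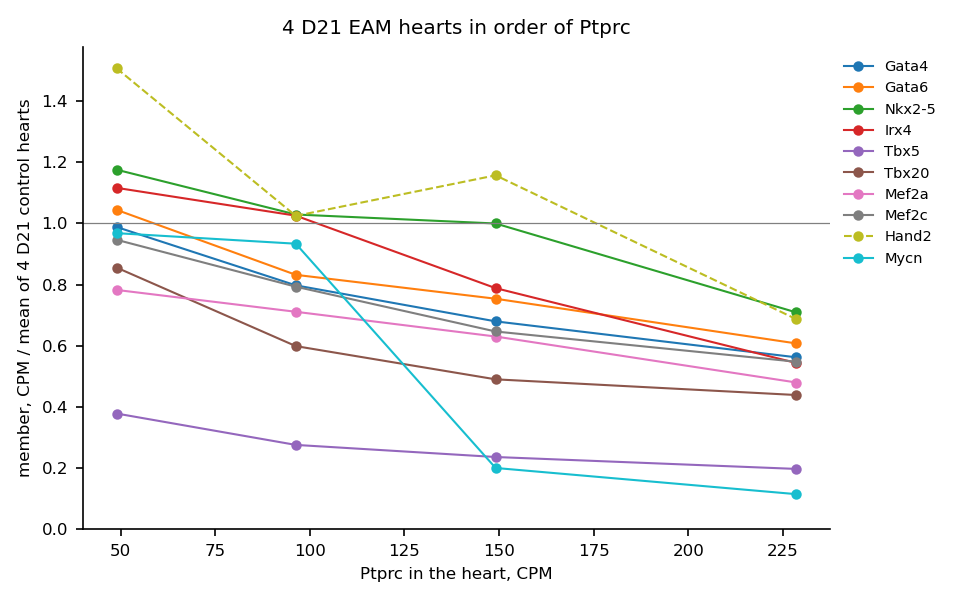
Level of each factor in the 4 D21 EAM hearts, divided by its mean in the 4 D21 control hearts (vertical axis, grey line at equality), against Ptprc in CPM (horizontal axis). Lines join the 4 hearts for each factor. Of the 10 factors, 9 are lower at each step of Ptprc from 48.9 to 229 CPM, Hand2 (dashed) is not, and Tbx5 is below the others in the 2 hearts with least Ptprc.

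Of 17 further factors of heart development tested, 11 fell and 1 rose at D15 (median log2 fold change -0.64). Of all genes, 31.1% were called lower and 33.2% higher at D15. Heyl and Hey1, repressors downstream of Notch signals, fell by 1.5 (SE 0.11) and 1.17 (SE 0.14), Prox1, a homeobox factor needed for cardiac muscle structure, by 1.41 (SE 0.19), and Tbx2, a T-box repressor, by 0.91 (SE 0.09). At D21, 3 of 17 fell, against 3.1% of all genes. The 3 were Nr2f1 (-1.30, SE 0.16) and Nr2f2 (-0.81, SE 0.13), of which Nr2f2 specifies atrial identity, and Prox1 (-1.17, SE 0.19). Of 24 cofactors and repressors, 13 fell at D15, against 31.1% of all genes, and 7 rose, against 33.2%. Hopx, a homeodomain protein that restrains SRF, fell by 1.70 (SE 0.17), Smyd1, a muscle methyltransferase, by 1.47 (SE 0.19), and Hdac9, a deacetylase that binds MEF2, by 1.39 (SE 0.14), whereas the SRF coactivator Mrtfa rose by 1.34 (SE 0.10). Tead1 alone fell at D21 (-0.85, SE 0.13), 1 of 24 against 3.1% of all genes.

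Of 25 cardiac target genes of these factors, 15 fell and none rose at D15 (median -0.97). Of all genes, 31.1% were called lower and 33.2% higher at D15. The largest were Adra1a (-2.25, SE 0.44), an adrenergic receptor, Hcn4 (-1.93, SE 0.29), the pacemaker channel, Ckm (-1.90, SE 0.37), muscle creatine kinase, and Myl3 (-1.45, SE 0.26), the ventricular light chain. At D21, 4 of 25 fell, against 3.1% of all genes. The 4 were Myl7 (-7.41, SE 1.03), Myl4 (-6.64, SE 0.64), Nppa (-2.45, SE 0.38) and Gja5 (-1.21, SE 0.16). Myl7 was at 0.497 to 10.8 CPM in the D21 EAM hearts and at 389 to 613 in the D21 control hearts, beside the near-absent Bmp10 of the same EAM hearts. For comparison, the cardiomyocyte markers had a median of -1.22 at D15, with 14 of 16 called lower, and -0.26 at D21, with none called. The fibroblast list had 6 of 10 called higher and 1 lower at D15, the endothelial list 9 of 10 lower, and the mural cell list 5 of 10 lower. The atrial list had 2 of 7 called lower at D15 (Kcnj3 and Kcnj5), with all 7 values negative and a median of -0.87. At D21, 11 of 14 leukocyte markers tested and 4 of 10 fibroblast markers were called higher, against 4.71% of all genes. At that time 1 of 10 endothelial markers was called lower, against 3.1% of all genes, and none of the 10 mural cell markers was called. None of the 5 epicardial and mesothelial markers tested was called at D15 or D21. At D10, where no gene was called, these 5 summed to 1.09 to 3.50 CPM in control and to 11.3 to 44.7 in EAM hearts without overlap, with a median log2 fold change of 3.92, and their part in the D10 values of the factors was not tested.

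The genes most like each factor were found by the root mean square difference of log2 CPM over the 24 libraries, each gene centred on its mean, among 14215 genes. The closest match of all was that of Mef2a with Zeb1 (0.0657). Oaz2 was among the 2 nearest genes of Nkx2-5 (0.0992) and Oplah among those of Gata6 (0.115). Gata4 was nearest to Prkaca (0.0956) and Plekhh3 (0.0976), and Mef2c to Prkca (0.0938) and Tpcn1 (0.102). Tbx20 was nearest to Nfib (0.116) and Nfia (0.119), Irx4 to Plpp7 (0.118) and Gmpr (0.147), and Hand2 to Anapc13 (0.177) and Gm8566 (0.18). The measure is not scaled to how much a gene varies, so genes that vary more lie further from others. By it, Tbx5 and Mycn had no close match. Cntfr (0.267) and Psd3 (0.279) were nearest to Tbx5, and Klhdc8a (0.486) and D630003M21Rik (0.508) were nearest to Mycn. Within the set, Mef2a and Mef2c were nearest to each other (0.144), whereas Mycn was 0.968 from Irx4, its nearest.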

How the data were processed

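Libraries were made with a directional kit from heart RNA. Per the labels, the authors aligned reads to GRCm38 with HISAT2 2.0.4 and used featureCounts and Picard; no source used here gives the strand setting. The deposited values are raw counts per gene. Files of single samples and the joint table were identical, and 92 spike-in rows held 0 reads and were left out. Genes were annotated with GENCODE M21.

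Each day's 4 EAM and 4 control libraries were TMM-normalised and fitted by quasi-likelihood in edgeR 4.0.16 (R 4.3.3). Genes with 10 reads or more in 4 or more of the 8 samples were kept, and calls were made at an FDR below 0.01, with the study's 2-fold limit given beside it. Differences between days were contrasts in a fit of all 24 libraries, and control hearts were compared in a fit of 12. Ratios to cardiomyocyte markers used exact permutation tests with a pseudocount of 0.5 CPM. The analysis plan foresaw an adjustment of these over the 10 factors, which was not used. Standard errors were derived from the fold change and F. Outside the set, up to 4 called genes of each list and day with at least 1 CPM and the largest fold change were named, and the 2 nearest genes of each factor, of which some are not reported here. Antisense partners, Bmp10, Max and the MYC and Ptprc values by heart were chosen after their values were seen. Alternatives were DESeq2 1.42.0, limma-voom (limma 3.58.1), the likelihood ratio test, RLE, total counts, cardiomyocyte scaling, no filter, 1 fit of 24 libraries, an FDR of 0.05, a replicate block and leaving out each library. The fits were tested on simulated data. The factors and gene lists were chosen with earlier results of these data known.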

Additional observations from a re-analysis of the deposited data

Results flagged for a closer look

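In 60 groups of 4 hearts (10 factors in 6 groups), 9 held a heart that stood apart from the other 3 by Dixon's criterion. For independent groups, chance meets this criterion in about 1 in 20. The 10 factors were measured in the same hearts, so the 60 groups are not independent and the count of 9 cannot be set against that rate. The share over all genes was not counted. D10 EAM heart 1 was lowest for Gata4 (111 CPM) and Gata6 (84.8 CPM), and it had the highest Ptprc of its group. D10 control heart 3 was lowest for Gata6 (96.3 CPM), within a narrow range. D15 EAM heart 3 was highest for Gata6 (74.3 CPM), and D15 EAM heart 2 was lowest for Irx4 (12.9 CPM) and Mef2c (52.4 CPM). D15 control heart 1 was lowest for Nkx2-5 (95.2 CPM) and highest for Mycn (15.8 CPM). D21 control heart 1 was highest for Mycn (16.8 CPM).

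The effect of EAM differed between days, by the test of the difference itself, in 6 cases. It was lower at D15 than at D10 for Tbx5 (-1.58 on the log2 scale), Gata4 (-0.93), Nkx2-5 (-0.79) and Gata6 (-0.75). It was higher at D21 than at D15 for Nkx2-5 (0.92) and lower at D21 than at D10 for Tbx5 (-2.51). Scaling to the cardiomyocyte markers left only the last of these past the limit. The atrial transcripts, which varied between hearts of all 3 days, are given beside the Tbx5 values, and their part in the Tbx5 differences was not tested.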

How the results depend on the processing

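Scaling to the cardiomyocyte markers was the setting that turned directions. The log2 fold changes that reversed were Gata4 0.10, Nkx2-5 0.11 and Mef2a 0.088 at D10; Gata4 0.15, Gata6 0.51, Nkx2-5 0.30, Tbx5 0.20, Tbx20 0.53, Mef2a 0.57, Mef2c 0.48 and Hand2 0.54 at D15; and Gata6 0.070, Nkx2-5 0.35 and Irx4 0.14 at D21. The differences that reversed were Gata4 0.051, Nkx2-5 0.19, Gata6 0.20, Mef2a 0.48, Mef2c 0.56, Tbx20 0.24, Hand2 0.13 and Irx4 0.066 between D10 and D15; Gata4 -0.18, Hand2 -0.051, Mef2a -0.81, Mef2c -0.56 and Gata6 -0.44 between D15 and D21; and Hand2 0.076 and Mef2c 0.0044 between D10 and D21. Of these, Mef2a and Mef2c were called between D10 and D15 and Mef2a between D15 and D21. Counts of called factors under this scaling were 5 at D15 (73.5% of all genes), 2 for D15 against D10 (36.3%) and 3 for D21 against D15 (13.5%). With TMM and the 2-fold limit, 3 were called lower at D15, against 12.9% of all genes. At D21, 3 were called lower by DESeq2 (10.8% of all genes called lower), by the likelihood ratio test (8.17%), in the fit of all 24 libraries (11.9%) and at an FDR of 0.05 (13.8%). At that FDR, 9 were called lower for D15 against D10 (26.6% of all genes), 5 higher for D21 against D15 (17.8%) and 4 higher in control hearts from D10 to D21 (6.1%). DESeq2 called 4 higher for D21 against D15 (12.7% of all genes) and 1 higher in control hearts from D15 to D21 (0.0392%). With target genes as the reference, the groups did not overlap for 1 factor at D15, which was lower, as were 4.61% of all genes. At D21 they did not overlap for 9 factors. Of these, 1 was lower, as were 0.504% of all genes, and 8 were higher, as were 84.8%. In the order of levels, 3 factors kept their rank with the longest transcript and 3 with the coding length.

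With each library left out in turn, counts ranged from 7 to 10 at D15 (57.6 to 65.7% of all genes called in the same fits), from 0 to 5 at D21 (0 to 27%), from 3 to 8 for D15 against D10 (15.6 to 41.6%), from 1 to 5 for D21 against D15 (5.65 to 24.4%), from 1 to 2 for D21 against D10 (0.619 to 1.58%), from 0 to 1 in control hearts from D10 to D15 (0 to 0.864%, the 1 being Tbx5 without D15 control heart 4) and from 0 to 2 from D10 to D21 (0.0395 to 2.17%). Of the values of EAM against control within a day, those that changed sign ranged from -0.0026 to 0.12 for Gata6 and from -0.060 to 0.12 for Tbx20 at D10, and from -0.11 to 0.11 for Nkx2-5 and from -0.044 to 0.31 for Hand2 at D21. Within a day, no direction of EAM against control reversed under RLE, total counts, no filter, DESeq2, limma-voom, the likelihood ratio test or the replicate block. The causes were not tested.

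With a replicate block, 0 factors were called at D10, 9 at D15 and 1 at D21, as without it, against 0.00665, 57.9 and 5.64% of all genes. Same-numbered hearts correlated from -0.08 to 0.37 at D10, from -0.10 to 0.04 at D15 and from 0.10 to 0.30 at D21 in their deviations from the group means, and not every heart was closest to its own number, so the numbers were not taken as pairs. The depth limits Mycn most, with 17 reads in its lowest library.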
